A study of Mus musculus with 4 samples.

Results

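The regions described here were the H3K27ac peaks whose nearest annotated gene was a pseudogene. They were chosen from a table of 4088 peaks by gene type (processed, transcribed processed or unprocessed pseudogene), leaving out chromosomes 1 and 8 and every peak annotated to an exon, an untranslated region or the stretch just downstream of a gene. The rule used the annotation and no measured value, and it selected 374 peaks (9.15% of the table, 95% binomial interval 8.28 to 10.1) at 351 pseudogenes. Of these peaks, 327 lay nearest to a processed pseudogene, 14 to a transcribed processed pseudogene and 33 to an unprocessed pseudogene.

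Chromatin immunoprecipitation and sequencing of H3K27ac was done in mouse embryonic stem cells (mESCs) of the Sv129 line, kept in DMEM with fetal bovine serum and antibiotics. FA4 cells were grown in control medium with 4 mg/L folate and FA0 cells in folate-deficient medium with 0 mg/L folate, and the length of the culture was not given in the labels. Each condition had 1 immunoprecipitated (IP) library and 1 input library, 4 libraries in all, so there was no replicate and no test between conditions. Each peak was a place where the caller found more FA4 than FA0 IP signal. This order was inferred from how the study names these promoter peaks; its own text speaks of somewhat more H3K27ac in cells lacking folate, and with the order turned round every difference below would turn too. No region higher in FA0 could appear in such a list.

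H3K27ac is an acetyl mark that sits on nucleosomes beside active promoters and enhancers. Processed pseudogenes are copies of spliced mRNAs that were reverse transcribed and inserted elsewhere in the genome, so they usually lack introns and the promoter of the parent gene. Unprocessed pseudogenes arose by duplication of DNA and can keep both. Genes with abundant mRNA in the germline, such as those of ribosomal proteins, have left many processed copies.

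For each peak the table gave the pileup, which is the number of FA4 fragments stacked at the summit, the fold enrichment, which is pileup plus 1 over local FA0 background plus 1, and the −log10 of the q-value. The local FA0 background was computed here from the pileup and the fold. It is the caller's local estimate on the scale of the FA4 pileup and not a count of FA0 fragments. How the caller scaled the libraries was not analysed here. For the labelled cell type, 7 of 10 stem cell marker genes (Pou5f1, Nanog, Sox2, Zfp42, Klf2, Tdgf1 and Dppa5a) had a promoter peak in the table. Klf4, Esrrb and Tfcp2l1 had none. The counts were 0 of 6 for markers of fibroblast feeders, 0 of 4 for endoderm, 0 of 3 for mesoderm and 0 of 3 for neural progenitors. Of all 21900 protein-coding symbols 4.74% had a promoter peak, so lists this small could be empty at that share. A gene acetylated alike in both conditions has no peak in such a list, so these zeros do not show which cells were absent. The total number of reads per library was not analysed here, so intervals below cover counting error only.

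Peaks nearest to pseudogenes were low. Their median pileup was 11 fragments (95% interval 11 to 11, n = 374), against 15 for the 1902 peaks nearest to protein-coding genes under the same chromosome and class rule and 11 for the 263 nearest to lincRNA genes. Only 41 of the 374 (11%, 7.98 to 14.6) reached a pileup of 20, while 837 of the protein-coding peaks did (44.0%, 41.8 to 46.3), as did 18.6% of the lincRNA peaks and 31.1% of all peaks in the table. Among distal intergenic peaks alone the share was 9.42% at pseudogenes, 23.2% at protein-coding genes and 7.64% at lincRNA genes. In introns it was 14.5%, 13.2% and 26.2%. None of the 374, which made up 9.15% of the table, was among the 100 peaks of highest −log10 q, 19 were among the first 500 and 65 among the first 1000. These ranks were not compared within annotation classes. The differences between gene types were not tested, because peaks of 1 pair of libraries are not replicates.

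Their folds were nevertheless slightly higher than those of protein-coding peaks. The caller's threshold on the q-value admits a low peak only at a high fold, which partly sets this difference in advance. The median fold was 4.12 (3.86 to 4.23) at pseudogenes, 3.54 (3.46 to 3.65) at protein-coding genes and 3.92 at lincRNA genes. A fold of at least 4 was found for 195 pseudogene peaks (52.1%, 46.9 to 57.3), where 39.2% of all peaks in the table reached it. A −log10 q of at least 3 was found for 150 pseudogene peaks (40.1%, 35.1 to 45.3), below the 46.7% of all peaks. The lincRNA peaks were above the table's share by fold as well, at 48.7%. Among distal intergenic peaks alone, the share with a fold of at least 4 was 49.8% at pseudogenes, 54.2% at lincRNA genes and 48.4% over all genes, so within the class that held most of them pseudogene peaks stood close to all peaks.

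The FA0 background under these peaks was mostly the lowest value in the table. Its median was 1.60 at pseudogenes and 3.19 at protein-coding genes. The lowest value was shared by 1494 of all 4088 peaks. Whether the FA0 signal itself was lower at some of them could not be read from the fold. In all, 220 of the 374 peaks (58.8%, 53.6 to 63.9) were within 0.01 of the lowest background of 1.60, against 513 of 1902 protein-coding peaks (27.0%, 25 to 29) and 148 of 263 lincRNA peaks (56.3%, 50 to 62.4). Among distal intergenic peaks alone the contrast was smaller. The shares there were 60.1% at pseudogenes, 44.9% at protein-coding genes, 65.3% at lincRNA genes and 53.2% over all genes. At 1 shared background the pileup alone fixes the fold and the q-value, so these 220 peaks formed a ladder. It began with 41 peaks of pileup 8, fold 3.46 and −log10 q 1.33, went through 51 peaks of pileup 9 and fold 3.84, 45 of pileup 10 and fold 4.23, 35 of pileup 11 and fold 4.61 and 24 of pileup 12 and fold 5.00, and ended with 13 of pileup 13, 10 of pileup 14 and 1 of pileup 15. The counting interval of a pileup of 8 runs from 3.45 to 15.8 fragments and that of 15 from 8.40 to 24.7, so neighbouring steps of the ladder could not be told apart at this depth.

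**Figure D1:**
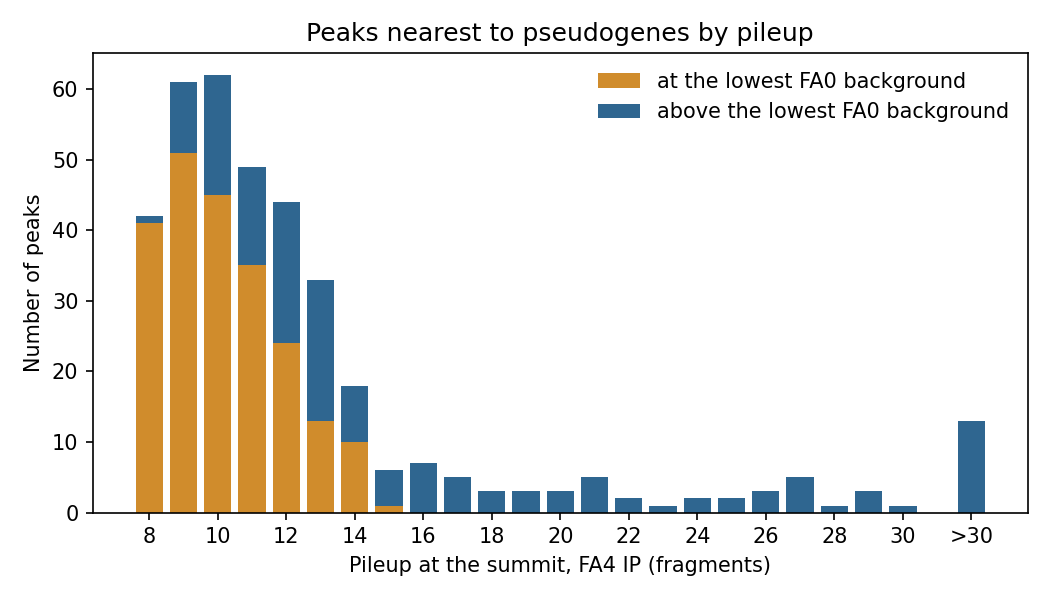
Number of peaks nearest to pseudogenes (y axis) at each pileup in fragments of the FA4 IP library (x axis, the last bar holding all above 30), split by whether the local FA0 background was the lowest in the table. The 220 peaks at the lowest background lie between pileups of 8 and 15, and every taller peak had a higher background.

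The other 154 peaks had a background above the lowest and were more varied. Their pileups ran from 8 to 87 with a median of 13, their folds from 1.84 to 6.15 with a median of 3.88, and 54 of them had a fold below 3.46, the lowest fold on the ladder. Among the 41 peaks with a pileup of at least 20, none was at the lowest background and the background ran from 2.86 to 44.9. Of these 41, 13 had a fold of at least 4 and 13 a fold under 3, so the tallest pseudogene peaks were not those of highest fold. The threshold on the q-value lets a tall peak in at a fold that keeps a low peak out.

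**Figure D2:**
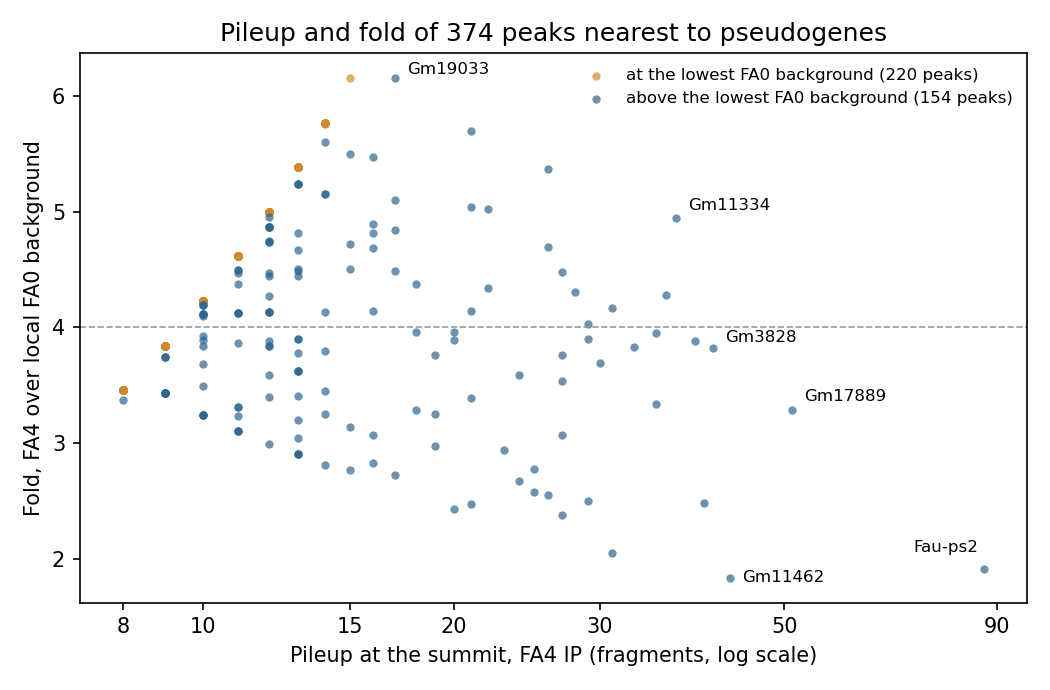
Pileup of the FA4 IP library in fragments (x axis, log scale) against fold over the local FA0 background (y axis) for the 374 peaks, each point 1 peak and the dashed line a fold of 4. The 220 peaks at the lowest background form the upper left edge, and the tallest peak, nearest to Fau-ps2, lies at a pileup of 87 at 1.92-fold.

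Most of the peaks lay away from genes. Distal intergenic peaks made up 223 of the 374 (59.6%, 54.5 to 64.6), intronic peaks 76 (20.3%, 16.4 to 24.8) and promoter peaks 75 (20.1%, 16.1 to 24.5), a promoter reaching 3 kb from a start. Among the protein-coding peaks the promoter share was 53.4% and the distal share 17.9%, and among the lincRNA peaks they were 20.5% and 54.8%. The class makeup of pseudogene peaks was therefore closer to that of lincRNA peaks than to that of protein-coding peaks. Of the 75 promoter peaks, 38 were annotated within 1 kb of the start, 23 at 1 to 2 kb and 14 at 2 to 3 kb, distances that the annotation takes from the edge of the peak.

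Peaks at the starts of pseudogenes had about the same height as those far from them. Within 1 kb of a pseudogene start the median pileup was 11.5 (10 to 13, n = 38), compared with 11 in distal intergenic regions (n = 223) and 11.5 in introns (n = 76). At protein-coding genes the same step was large, with a median pileup of 46 (44 to 49, n = 748) within 1 kb of the start, 12 in distal intergenic regions and 11 in introns. lincRNA starts lay in between at 20 (10 to 41, n = 31). The FA0 background within 1 kb of the start was 1.60 at pseudogenes, 17.4 at protein-coding genes and 4.54 at lincRNA genes, and it was the lowest in the table for 25 of 38, 52 of 748 and 8 of 31 peaks. The median fold there was 4.23 at pseudogenes and 2.80 at protein-coding genes. The lower peaks had the higher fold, an order that the caller's threshold on the q-value partly sets in advance.

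**Figure D3:**
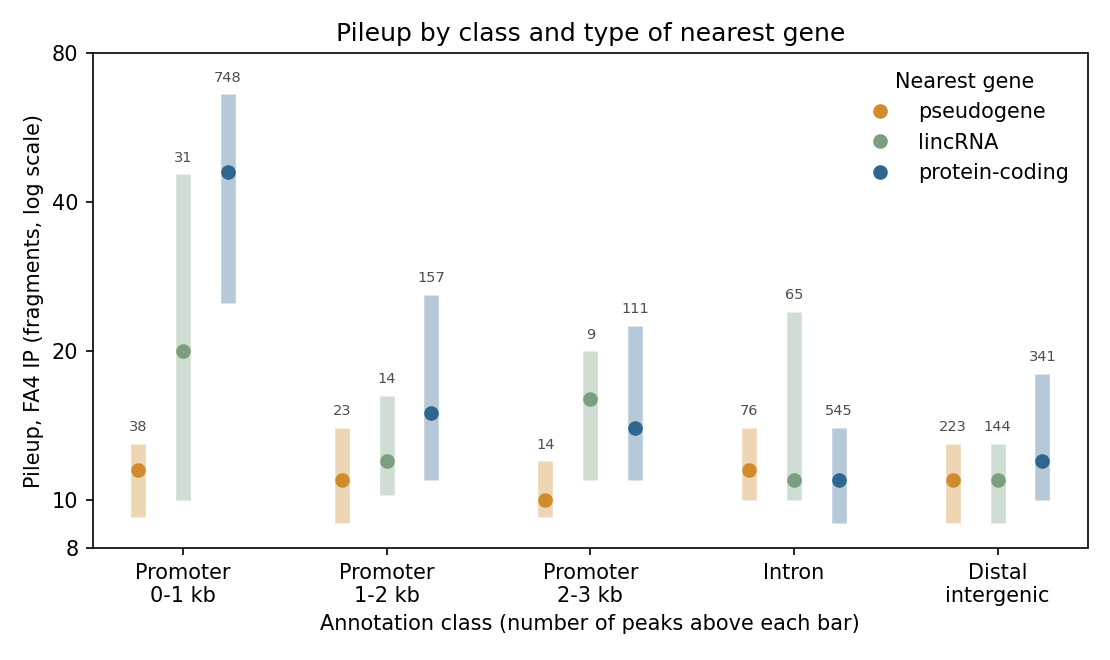
Pileup of the FA4 IP library in fragments (y axis, log scale) by annotation class (x axis) for peaks nearest to pseudogenes, lincRNA genes and protein-coding genes. Points are medians, bars run from the lower to the upper quartile and the number above each bar is the number of peaks; within 1 kb of a start the medians are 11.5, 20 and 46.

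Few of the peaks lay on the pseudogene itself. The median distance from a summit to the start of the pseudogene was 16786 bp (quartiles 4965 and 50102 bp, highest 498260 bp), while the median pseudogene was 608.5 bp long and the median peak 319 bp wide. Peaks lay on both sides of it: 186 of the 362 with a direction (51.4%, 46.1 to 56.6) were downstream, and 12 overlapped the start. Summits fell within 10 kb of the start for 145 peaks (38.8%, 33.8 to 43.9) and within 100 kb for 332. Only 18 summits (4.81%, 2.88 to 7.50) were inside the pseudogene, so the pseudogene was in most cases a neighbour of its peak and did not contain it.

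**Figure D4:**
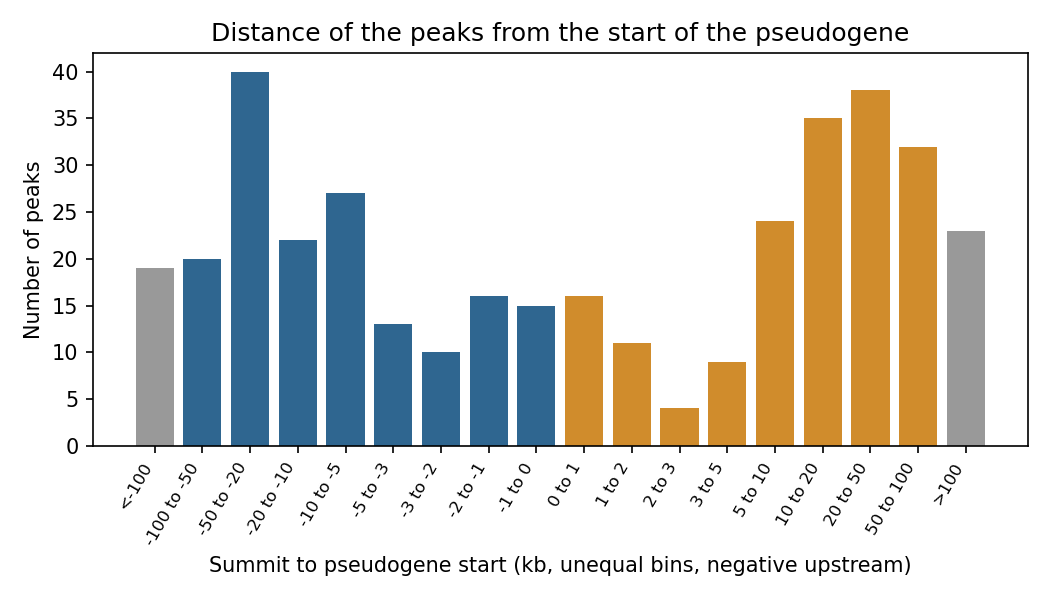
Number of peaks (y axis) by distance from the summit to the start of the nearest pseudogene in kb (x axis, unequal bins, negative upstream; grey bars hold peaks beyond 100 kb). The counts spread over both sides, and the 1-kb bins beside the start hold 15 and 16 peaks.

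Among the 18 peaks with the summit inside, that of Fau-ps2 (chr11:3196563-3196943, mm10, within Sfi1) was the tallest, with a pileup of 87 over a background of 44.9, the highest background of all 374 peaks, and a fold of 1.92. The 3 of highest −log10 q were lower in pileup and higher in fold. Gm44902 (chr7:74886231-74886529) had a pileup of 14 at 5.77-fold, Gm5363 (chr9:4213880-4214149) a pileup of 15 at 5.50-fold, and Gm13921 (chr2:102174548-102175193, within Ldlrad3, which codes for a receptor of the LDL receptor class A domain family) one of 13 at 5.38-fold. Gm5425, Gm5809 and Gm8801 each had a pileup of 12 at 5.00-fold. Among the 18, only Fau-ps2, Gm5363 and Gm11936 had a background above the lowest.

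The peak of highest −log10 q was a distal intergenic peak nearest to Gm11334 (chr13:23402052-23402510), with a pileup of 37 (counting interval 26.1 to 51.0), a background of 6.68, a fold of 4.95 and a −log10 q of 11.1. It ranked 132 of all 4088 peaks and lay 21551 bp from the start of Abt1, a nucleolar protein gene that also had a peak. It was followed by Gm6139 (chr5:129632049-129632351, pileup 36, fold 4.28), Gm3828 (chr10:80959496-80959871, pileup 41, fold 3.82), a peak of 2010010A06Rik described with its run, and Gm17889 (chr5:18798260-18798982, pileup 51, fold 3.29). The Gm3828 peak was in an intron of Gng7, which codes for a G protein gamma subunit, and the Gm17889 peak was 428286 bp from the nearest listed protein-coding start, that of Magi2. Gm46426 on chromosome 13 followed with a pileup of 39 at 3.88-fold. It lay 2487 bp from a listed protein-coding start, so the strongest peaks differed widely in their distance to such a start.

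The highest folds belonged to other pseudogenes. Gm19033 (chr7:107354937-107355412) had a pileup of 17 at 6.15-fold, and Gm13359 (chr2:26751261-26751536) a pileup of 15 and the same fold to 2 decimals. Gm5578, Gm35736, Gm44902, Vmn1r-ps151, Gm26977, Gm12391, Gm18541, Gm5473 and Gm6702 were tied, each with a pileup of 14 at 5.77-fold at the lowest background. At the other end, the lowest fold was at Gm11462, with a pileup of 43 over a background of 22.9 and a fold of 1.84. Its −log10 q of 1.33 was shared with all 41 peaks of pileup 8 at the lowest background, the lowest among pseudogene peaks, and peaks beyond the authors' threshold were not analysed here.

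Some pseudogenes had several peaks. Of the 351, 332 had 1 peak, 17 had 2 and 2 had 4, and 7 of the 19 with several had them within 10 kb. All 4 peaks nearest to 2010010A06Rik lay in Dym, which codes for the Golgi protein dymeclin, with summits spanning 15066 bp (chr18:75247782-75263047). Their pileups were 26, 26, 13 and 21 from left to right, over backgrounds of 4.03, 4.75, 2.12 and 2.86, and their folds ran from 4.49 to 5.69. The summits of the 4 peaks nearest to Gm11278 spanned 6375 bp (chr13:21862694-21869334), 25229 bp from the histone gene H4bc24, with pileups from 13 to 35 and folds from 3.07 to 4.16. Pileups varied within each run, from 13 to 26 in the first and from 13 to 35 in the second. The summits lay 7095 bp or more from the start of the pseudogene they were assigned to. Close pairs, picked out after their spacing was seen, were found at Gm6139 (pileups 36 and 29, 1455 bp apart), Gm47600 (27 and 21, 1028 bp apart), Itpa-ps2, Gm5121, Gm12980 and Gm48826.

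Listed protein-coding starts were far from most of the peaks. A start counted as listed if it had a RefSeq promoter window, as for 17492 of 21900 protein-coding genes. The nearest was a median of 121126 bp away (362 peaks, those of chromosome 18 having no window). Windows were also missing elsewhere, so some of these distances are too long. For the Rps19-ps5 peak the nearest listed start was 2266371 bp away, while the body of Rrm2b was 55958 bp away. No peak had a listed start within 1 kb (0 of 362), 5 had one within 3 kb and 16 within 10 kb. These low counts follow largely from the rule, because a peak beside a protein-coding start is usually assigned to that gene. By gene bodies, which were listed for all 21900 genes, none of the 288 peaks outside a gene was within 1 kb of one and 3 were within 3 kb. Their median distance to a body was 84433.5 bp. The closest listed start was that of Mdn1, a ribosome assembly gene, 1144 bp from the Gm11936 peak, which had a pileup of 21 at 2.48-fold. Near the stem cell gene Nanog, a peak nearest to Gm10420 lay 18771 bp from the Nanog start with a pileup of 15 over a background of 4.09 and a fold of 3.14. Gm11936 and Gm10420 were named after their values were seen.

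Some of the peaks were inside a protein-coding gene, although the gene assigned by the table was a pseudogene. RefSeq genes held 86 of the 374 (23.0%, 18.8 to 27.6), against 1380 of 1902 protein-coding peaks (72.6%, 70.5 to 74.6). The choice of peaks by their nearest gene sets much of this contrast in advance. The 81 host genes were long, with a median length of 190 kb against 17.1 kb over all 21900, and a long gene covers more ground. One host, Gm6650, was the assigned pseudogene itself, which RefSeq lists as protein-coding. Of the other 80 hosts, 2 (2700049A03Rik and Rad23b) had a promoter peak, where 4.74% of all 21900 protein-coding symbols had one. So small a count does not set the hosts apart from that share. Peaks inside a host gene had medians of 11 for pileup and 4.23 for fold, and those outside 11 and 4.12, with overlapping intervals (3.84 to 4.51 and 3.84 to 4.23). The nearest other peak of any kind was a median of 286200 bp away and within 10 kb for 25 of the 374. This spacing was not compared with that of the other peaks in the table.

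By type, the 14 peaks of transcribed processed pseudogenes had medians of 12.5 (10 to 26) for pileup and 4.61 for fold (4.23 to 5.37), and 12 of them had a fold of at least 4. The 327 peaks of processed pseudogenes had medians of 11 and 4.12, with 169 at a fold of at least 4 (51.7%, 46.1 to 57.2). The 33 of unprocessed pseudogenes had medians of 10 and 3.84, with 14 at such a fold. For comparison, the share at that fold was 52.1% for all 374 pseudogene peaks and 39.2% for all 4088 peaks. The processed share was thus that of pseudogene peaks as a whole, and differences between the types were not tested. The transcribed group held 4 peaks of 1 pseudogene, 2010010A06Rik, and 10 pseudogenes in all. Besides those 4 it was led by Gm45299, whose distal peak on chromosome 7 had a pileup of 28 at 4.31-fold. The unprocessed group was led by the vomeronasal receptor pseudogene Vmn1r-ps151, by Gm21461 (pileup 27, fold 3.76) and by Vmn1r-ps10 (pileup 13, fold 5.38).

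Pseudogene symbols were mostly gene model numbers, 331 of the 374 peaks being nearest to a Gm or Rik model. The 12 peaks of ribosomal protein pseudogenes with an Rpl or Rps symbol had medians of 10 (9 to 13) for pileup and 4.23 for fold (3.62 to 4.23), and 8 were at the lowest background. Rps2-ps6 led them with a pileup of 16 at 5.47-fold, followed by Rpl21-ps8 with 12 at 4.95-fold in an intron of Mbp, the myelin basic protein gene. Rps19-ps5, whose start the peak overlapped, was the tallest at 27 over a background of 8.12, with a fold of 3.07. Rpl31-ps2, Rpl31-ps16, Rpl31-ps18, Rpl7a-ps5 and Rps15a-ps3 stood at the same step of the ladder, with a pileup of 10 at 4.23-fold. Apart from Rps2-ps6 and Rps19-ps5, none of these 12 peaks was above a pileup of 13. They were grouped by Rpl and Rps symbols, so Fau-ps2, whose parent also codes for a ribosomal protein, was not among them.

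The 24 peaks of other pseudogenes named after a gene or gene family had medians of 11 (9 to 13) for pileup and 3.79 for fold (3.46 to 4.23), with 10 at the lowest background. Atp6v0c-ps2, a copy of the gene for a proton channel subunit, had a pileup of 29 at 4.03-fold, and Itpa-ps2, a copy of the inosine triphosphatase gene, had peaks of 30 and 24 with folds of 3.69 and 2.67 inside Pcolce2. Gpx4-ps2, a copy of a glutathione peroxidase gene, had 13 at 5.38-fold, and Cct3-ps1, a copy of a chaperonin subunit gene, 12 at 5.00-fold. The 4 peaks of receptor pseudogenes ranged from 8 (Olfr359-ps1, olfactory) to 14 (Vmn1r-ps151). Of the 3 remaining symbols, Frg2f4 had a pileup of 16, Fabp5l2 12 and Hmgb1-rs16 10. Mid1-ps1, on chromosome Y, had a pileup of 40 over a background of 15.5 and a fold of 2.48, so its FA0 background was high as well.

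For 23 genes a pseudogene peak carried the symbol of the parent, and 9 of these parents had a promoter peak of their own (39.1%, 19.7 to 61.5), 4 of 7 with an Rpl or Rps symbol and 5 of 16 others, Fau being among the latter. Over all protein-coding symbols the share was 4.74% (1037 of 21900). The named parents are largely housekeeping genes and were not matched to the rest in level, so the shares were only set side by side. In these 9 the parents' peaks, chosen for naming after their values were seen, were taller than those of their pseudogenes, except for Fau, which codes for ribosomal protein S30 joined to a ubiquitin-like protein. Rpl7a had a pileup of 128 at 4.72-fold while the peaks nearest to its pseudogenes reached 10. Rpl27 had a pileup of 96 (fold 3.59) against 13 for the peak nearest to Rpl27-ps2. Psmb6, a catalytic proteasome subunit gene, had 44 (fold 3.99) against 12 for Psmb6-ps, and Hmgb1, a chromatin protein gene, had 61 (fold 2.57) against 10 for Hmgb1-ps4. Fau stood at 80 with a fold of 2.08 and Fau-ps2 at 87 with a fold of 1.92, a difference in pileup within counting error. How far reads of such near-identical copies could be told apart was not tested, and of the 30 peaks of these pseudogenes only those of Fau-ps2 and Gtpbp4-ps7 had the summit inside the copy.

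**Figure D5:**
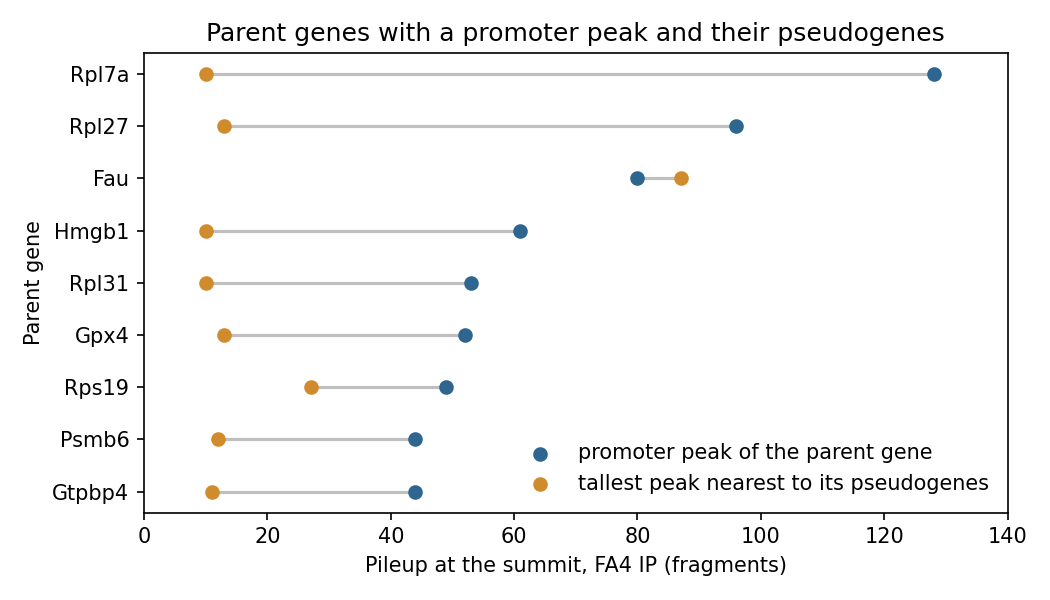
Pileup of the FA4 IP library in fragments (x axis) for the 9 parent genes with a promoter peak (blue) and for the tallest peak nearest to a pseudogene of each (orange). The parent is the taller in every pair but Fau, whose 80 fragments compare with 87 at Fau-ps2.

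Promoter letters of parents with an acetylated start are shown because a processed copy leaves this stretch behind. In the RefSeq windows of GRCm38.p6 (250 bp before to 50 bp after the start), the GC box GGGCGG, searched on both strands, was found for 8 of the 9 parents and in 46.2% of all 21263 promoters. The TATA box TATAAA was found in 0 of 9 (12.6% of all), CCAAT in 1 (38.2%) and the ETS motif CCGGAAG in 2 (11.6%), both strands each, and no motif contains another. The 9 parents were picked for their promoter peak, so all promoters are an unlike set. Promoters with a peak were not searched apart. The 30 bases around the GC box nearest to the start, upstream of it, are given 5′ to 3′ on the strand of the gene, with the box or its reverse complement CCGCCC in capitals. They lie at chr2:26910674-26910703 (plus strand) for Rpl7a, chr11:101442013-101442042 (plus) for Rpl27, chr11:70525163-70525192 (plus) for Psmb6, chr5:149051617-149051646 (minus) for Hmgb1 and chr19:6057848-6057877 (plus) for Fau.
Rpl7a: cccgctcaggctCCGCCCctctgtcagagt
Rpl27: acaaacacacccCCGCCCaccactgacaca
Psmb6: tgagaagaggctCCGCCCttttcccccctt
Hmgb1: ctcaacctcgggccaagttgggaGGGCGGa
Fau: tgggacggcggtGGGCGGtacaaaccacca
The boxes of Rpl31, Rps19 and Gtpbp4 are not shown. Among those shown, the box began 121 bp before the start at Rpl7a, 220 bp at Rpl27, 182 bp at Psmb6, 7 bp at Hmgb1 and 87 bp at Fau. A match describes these letters and shows neither binding nor a cause of the peak. No pseudogene peak overlapped a RefSeq promoter window (0 of 362), which the choice of peaks by their nearest gene partly sets in advance. The sequence under the pseudogene peaks themselves was not analysed here.

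Pseudogene peaks were spread over the genome. Over 17 autosomes there were from 1.75 to 7.99 peaks per 100 RefSeq pseudogenes, with a median of 4.62, the highest on chromosome 5 (39 peaks, Poisson interval of the rate 5.68 to 10.9) and the lowest on chromosome 19. Chromosome X had 0.694 and chromosome Y 1.98. Only 234 of the 351 pseudogene symbols matched RefSeq, so these rates divide peaks of one annotation by pseudogenes of another. As a share of all peaks of the same classes, pseudogene peaks made up 12.2% of 3063 overall and from 3.81% to 20% by autosome, with the highest share on chromosome 12 (23 of 115, 13.1 to 28.5). The median pileup per autosome stayed between 10 and 12.5 throughout.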

How the data were processed

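H3K27ac ChIP-seq libraries of Sv129 mESCs (IP and input, FA4 and FA0) were analysed from the authors' peak tables. The submitters' processing notes name bcl2fastq 2.17, the aligner Bowtie 1.1.2, the build mm10 and the peak caller MACS2 2.1.0. Their settings, among them the treatment of reads that map to several copies, are not given in the sources used here, and neither is the annotation tool. Chromatin was digested enzymatically, and libraries were amplified by PCR without molecular identifiers.

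The pileup signal was deposited by the authors in unscaled whole fragments. The −log10 of the q-value was deposited as the caller computed it, and the fold ratio deposited by the authors compares pileup with local background, each plus 1. The promoter table was used to check that all 75 promoter peaks were in it. Peak positions, widths and distances in bp, also deposited, were the other values used. Adding 1 to the pileup, dividing by the fold and taking off 1 gave the local background, and values within 0.01 of the lowest were counted as lowest.

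Shares have Clopper-Pearson intervals, counts exact Poisson intervals and medians order-statistic intervals, at the 95% level. RefSeq genes of GRCm38.p6, the assembly of mm10, gave hosts, neighbours and promoter windows. Of 351 pseudogene symbols, 234 matched. A parent was read from a symbol ending in -ps, leaving out family names such as Mup. The procedure was checked on simulated data.

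The members, gene lists and thresholds (fold of 4, −log10 q of 3, pileup of 20) were chosen with earlier results of these data known. The named pseudogenes were those of the 10 peaks of highest −log10 q and of highest fold, those with 3 or more peaks, up to 5 by −log10 q of each symbol group and gene type, the 5 highest with the summit inside, and peaks at the edge of the threshold. Others are marked in the text. Alternatives were a −log10 q of at least 3, a fold of at least 3, other chromosome, class and type rules, 1 peak per pseudogene and other definitions of position. Input libraries were not analysed here. Tools were scipy 1.17.1, numpy 2.4.6 and pandas 2.3.3 under Python 3.11.15, with matplotlib 3.10.9 for figures.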

Additional observations from a re-analysis of the deposited data

How the results depend on the processing

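With only peaks of −log10 q of at least 3, the number of pseudogene peaks was 150, the median pileup 13, the median fold 4.73, the distal intergenic share 50% and the share with a fold of at least 4 87.3%. Taking only peaks above the lowest FA0 background, a setting chosen after seeing the data, gave 154 peaks, a median pileup of 13, a share with a fold of at least 4 of 43.5% and a share with the summit inside of 1.95%. Leaving out peaks inside a protein-coding gene, also chosen after seeing the data, gave a distal share of 76.4%. Of 75 values under these and the other alternatives, 65 moved by less than their 95% interval, or for counts by less than 1.5 times. No paired analysis was possible because the groups hold a single library each, which also left no replicate to omit. Most pileups lay near the lowest the caller accepted, so counting error limits each single peak.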

Other observations

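The same 3 pseudogene types had 141 further peaks that the rule left out, 63 on chromosome 1, 62 on chromosome 8 and 16 of a left-out class elsewhere. Their median pileup was 11 and their median fold 3.94, and 42.6% were at the lowest FA0 background. The tallest, nearest to Rpl30-ps6 on chromosome 1, had a pileup of 109 over a background of 33.4, a fold of 3.19 and a −log10 q of 19.2, the pileup and the −log10 q being above those of all 374 selected peaks. Other pseudogene types held 17 peaks, of which the median pileup was 11 and the median fold 3.54.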
